A study of Mus musculus with 32 samples.

Results

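The genes described here are 42 genes of vesicle transport between the endoplasmic reticulum (ER) and the Golgi apparatus, taken by symbol from a count table of 20234 mouse genes. They comprise 11 genes of the COPII coat and its GTPases, 7 of the COPI coat, 6 Arf GTPases and regulators, 5 of the p24 family, 7 cargo and retrieval receptors, 4 SNAREs and 2 tethers. All 42 were found and all 42 passed the filter on low counts in both kinds of RNA, so no member was dropped. The rule takes genes by symbol and sets no threshold on a measured value, but the list was drawn up with earlier results of these data known.

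The cells were MEFs, fibroblasts grown from mouse embryos. They were harvested without thapsigargin (control, 0 h), after thapsigargin for 1 h or 16 h, or after 16 h with a PERK inhibitor during the last 4 h. The last group is called the inhibitor group. Thapsigargin blocks the ER calcium pump and causes ER stress, and PERK is a sensor kinase in the ER membrane whose target is the translation factor eIF2. Cytosolic RNA and the RNA of gradient fractions with more than 4 ribosomes (polysome RNA) were sequenced from 4 replicates of each condition, which gives 16 samples and 32 libraries. Not given in the sources used here are the strain and genotype of the cells, the number of isolates, the doses, the name of the inhibitor and any solvent given to the other groups. Nothing in the labels says that replicates came from separate cultures, and every p-value below rests on a spread between replicates that may be technical only.

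New secretory proteins leave the ER in COPII vesicles. The GTPase SAR1 recruits SEC23 and SEC24, of which SEC24 binds cargo, and SEC13 with SEC31 then builds the outer cage. COPI vesicles, whose coat is loaded by ARF1, return escaped ER proteins and receptors from the Golgi. KDEL receptors retrieve ER chaperones, p24 proteins and other receptors select cargo, and tethers and SNAREs dock and fuse the vesicles. Mammalian cells raise many of these genes in the unfolded protein response, through the factors ATF6 and XBP1, while active PERK lowers translation of most mRNAs.

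RefSeq promoters (250 bases before to 50 after the start, GRCm38.p6) were found for 37 of the 42 members. The sequence TGACGTG, which on the opposite strand reads CACGTCA, is the core of the unfolded protein response element, which ATF6 and XBP1 bind. It stood in 7 of the 37 promoters (18.9%), in 2.01% of all 32851 promoters, and in 3.26% of the 9485 tested genes with a promoter. The match is a description of letters and not a measured binding site. The 7 stretches are shown because they hold the core and belong to members whose values follow. The core is in capitals, and each stretch is written 5′ to 3′ on the strand of its gene.
Copb2 promoter: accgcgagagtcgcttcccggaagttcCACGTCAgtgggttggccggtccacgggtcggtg
Copb1 promoter: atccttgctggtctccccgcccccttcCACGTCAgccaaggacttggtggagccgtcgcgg
Sec24d promoter: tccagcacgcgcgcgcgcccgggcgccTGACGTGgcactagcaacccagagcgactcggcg
Sec23a promoter: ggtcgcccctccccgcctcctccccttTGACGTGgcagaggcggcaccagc
Gbf1 promoter: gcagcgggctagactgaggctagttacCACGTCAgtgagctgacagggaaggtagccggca
Kdelr3 promoter: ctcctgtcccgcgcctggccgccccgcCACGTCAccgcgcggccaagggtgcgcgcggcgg
Arf1 promoter: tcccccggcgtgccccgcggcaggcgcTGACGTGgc
They lie at chr9:98563698-98563758 for Copb2 (plus strand), chr7:114254674-114254734 for Copb1 (minus strand), chr3:123267443-123267503 for Sec24d (plus strand), chr12:59011988-59012038 for Sec23a (minus strand), chr19:46152520-46152580 for Gbf1 (plus strand), chr15:79516352-79516412 for Kdelr3 (plus strand) and chr11:59228238-59228273 for Arf1 (minus strand). In 5 of the 7 the first base of the core lay between 6 and 29 bases upstream of the start. The core of Copb2, the nearest of these, runs across the start. In Sec23a and Arf1 the core lay 7 and 22 bases after the start, and another RefSeq start of Arf1 puts the same core 84 bases upstream. The ER stress element and its shorter form ERSE-II were searched on both strands and were present in 0 of the 37 windows, against 0.119% and 0.0365% of all promoters. The C/EBP-ATF composite element TGATGNAA, bound by ATF4 with C/EBP partners, was present in 1 of the 37, Kdelr1 (2.7%). Its share was 3.97% of all promoters and 2.87% of the tested genes with a promoter.

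Libraries held 19317276 to 34966246 counts in cytosolic RNA and 21160092 to 41776027 in polysome RNA. All 8 fibroblast markers examined, such as Sparc and Col1a2, were above 1 CPM (a count relative to its library, after TMM scaling) in every group. Epithelial and endothelial markers, 4 of each, summed to at most 1.92 CPM in any library, and the 4 leukocyte markers to 7.63 to 14.5 CPM in cytosolic and 12.7 to 31.0 CPM in polysome RNA, with Cd14 the highest of them. The 4 markers of pluripotent cells summed to 2.81 to 6.21 CPM in cytosolic and 2.02 to 5.30 CPM in polysome RNA. In cytosolic RNA, summed fibroblast markers were 12817 to 16423 CPM in control, 22699 to 27459 at 1 h, 6567 to 7359 at 16 h and 6912 to 7443 in the inhibitor group. Their part in the results was not tested. Hspa5, the ER chaperone BiP and a marker of the stress response, rose 3.06-fold at 1 h and 16.7-fold at 16 h in cytosolic RNA. It was 2.46-fold lower in the inhibitor group than at 16 h. In bulk RNA, fewer cells that express a gene and less RNA per cell cannot be told apart. Control replicate 1 of the cytosolic libraries stood apart from its 3 partners in 7 of the 42 members, and counts without it follow.

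The members did not move as a block at 1 h. In cytosolic RNA, 21 members rose and 19 fell after 1 h, and 56.2% of all tested genes were called, 28.1% higher and 28.1% lower (edgeR quasi-likelihood test, Benjamini-Hochberg adjusted p under 0.05). Of 18 COPII and COPI genes, 15 rose, while all 12 p24 and receptor genes fell. Without control replicate 1 the counts were 20 and 16. The median member change was 0.06 on the log2 scale, against 0.00 over all tested genes. At 16 h, 32 members were above control and 7 below it, with 77.3% of all genes called, 37.9% higher and 39.4% lower. The medians were 0.35 for members and -0.01 for all tested genes. Between 1 h and 16 h, 28 members rose and 5 fell (75.3% of genes called, 37.7% higher and 37.7% lower), with a median member change of 0.45 against 0.01. The plot of all member changes shows them by role.

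Role and coding length go together among the members, and the split at 1 h ran with length as well. In cytosolic RNA, 3 of the 22 members with a coding sequence under 1200 nt rose and 18 fell, and 18 of the 20 longer ones rose and 1 fell. In polysome RNA the counts were 3 and 19 for the shorter and 16 and 4 for the longer. Spearman's rho between coding length and change at 1 h was 0.72 in both kinds of RNA over the 42 members, and 0.34 over 11944 genes in cytosolic and 0.46 over 11655 genes in polysome RNA. The points share their libraries. All changes were also fitted with a trend on coding length removed, a correction chosen after the data were seen. It turned the sign of 32 of the 530 called member values and moved another 204 by more than 1.5 times. With it, 3 shorter members rose and 15 fell in cytosolic RNA at 1 h, and 14 longer ones rose and 2 fell. Role and length cannot be told apart over these 42 genes. Values from this correction are called length-corrected and are given beside some of the main results. Results printed without such a value can also shift with it.

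**Figure D1:**
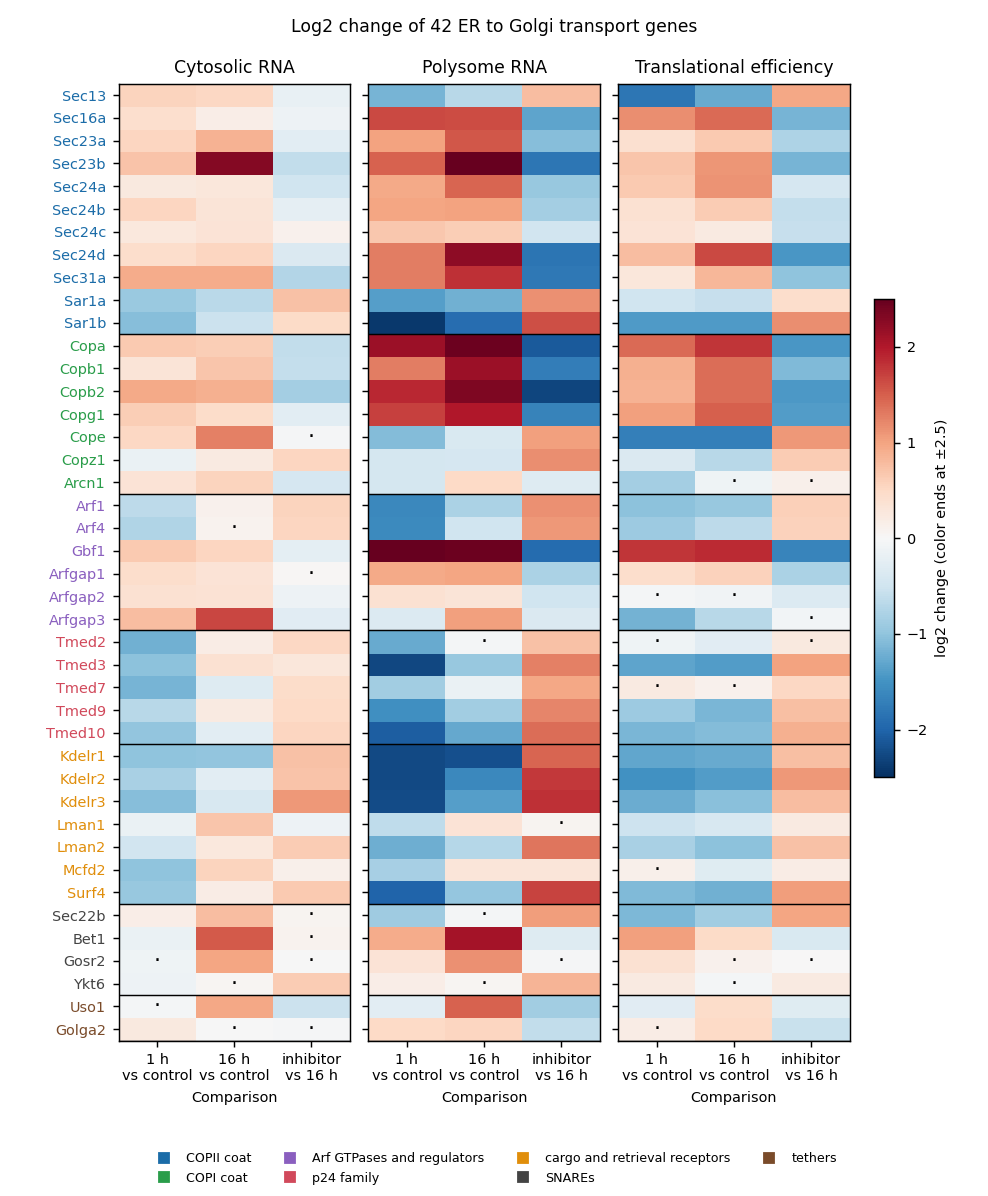
Log2 change of the 42 members (rows, name colors give the role) in 3 comparisons for cytosolic RNA, polysome RNA and translational efficiency; a dot marks a change that was not called, and red is higher. In the cytosolic panel 15 of the 18 COPII and COPI rows are red at 1 h, and all 12 p24 and receptor rows are blue.

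The inhibitor group differed from 16 h in both directions: 18 members were higher and 18 lower in cytosolic RNA, with 74.7% of genes called, 42.2% higher and 32.5% lower. Fitted on these 2 conditions alone, the median of all genes moved from 0.10 to -0.04 and the counts became 16 and 20. Against control, 31 members of the inhibitor group were higher and 2 lower, with 73.3% of genes called, 38.1% higher and 35.2% lower. The median was 0.44, against 0.04 for all genes. Without control replicate 1, 33 were higher and 2 lower. The comparisons share the 16 h and the control libraries, so their counts are not independent of each other.

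In polysome RNA the spread of the members was wider than in cytosolic RNA. After 1 h, 19 members rose and 23 fell, from -2.40 for Sar1b to 2.52 for Gbf1, and 79.5% of genes were called, 41.1% higher and 38.5% lower. At 16 h, 23 were above control and 16 below it (85.1% called, 42.3% higher and 42.9% lower). From 1 h to 16 h, 32 rose and 1, the SNARE gene Ykt6, fell (78.5% called, 38.4% higher and 40% lower), a call that DESeq2 did not make. The inhibitor group had 20 members above and 20 below the 16 h group (82.8% called, 42.1% higher and 40.7% lower), and 34 above and 3 below control (77.1% called, 36.8% higher and 40.3% lower).

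Translational efficiency stands here for a gene's polysome level over its cytosolic level, tested as an interaction over all 32 libraries. It is relative to the other mRNAs of a library and is blind to a shift that all mRNAs share. After 1 h, 17 members rose in efficiency and 20 fell (67.8% of genes called, 33.4% higher and 34.4% lower), and at 16 h the counts were again 17 and 20 (64.2% called, 31.1% higher and 33% lower). Between 1 h and 16 h, 17 rose and 6 fell (28.1% called, 14.5% higher and 13.6% lower). In the inhibitor group 20 members were more and 18 less efficient than at 16 h (60.1% called, 26.4% higher and 33.7% lower). Against control, 7 were higher and 16 lower (43.4% called, 16.3% higher and 27.1% lower), a split that became 11 and 10 with DESeq2 and 6 and 14 without control replicate 1.

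Among the COPII genes, the inner coat and the outer cage scaffold rose and the SAR1 GTPases fell. At 1 h, 9 of 11 rose in cytosolic RNA, and at 16 h 9 were above control. Both times the exceptions were Sar1a and Sar1b. Length-corrected, the 1 h rises of Sec24a (0.0260) and Sec24c (0.0597) were not called. Sec23b, the SEC23 paralogue mutated in a human red cell disorder, had the highest rise of all members at 16 h. The gene lies at chr2:144556229-144590749 (GRCm38, plus strand). Its cytosolic level was 33.7, 29.3, 31.9 and 32.6 CPM in the control libraries and 169, 149, 157 and 152 CPM at 16 h, a log2 change of 2.30 ± 0.0551 (SE; 4.91-fold, adjusted p = 4.27e-16). It was 52.1, 54.0, 49.6 and 54.4 CPM at 1 h and 101.4, 108, 100.1 and 100.2 CPM in the inhibitor group. None of these 4 ranges overlapped. In polysome RNA Sec23b went from 33.1, 33.4, 36.6 and 33.8 CPM to 372, 374, 379.7 and 371 CPM at 16 h, 10.9-fold higher.

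Its paralogue Sec23a rose less. Cytosolic Sec23a stood at 65.6, 50.5, 53.9 and 53.3 CPM in control and 112.5, 97.9, 90.1 and 105 CPM at 16 h (1.82-fold), with 74.0, 85.8, 79.5 and 86.4 CPM at 1 h and 79.7, 89.8, 78.5 and 88.2 CPM in the inhibitor group. Scaled to transcript length, Sec23b made up 45.9% ± 1.88 (SD, n = 4) of the summed SEC23 mRNA in control and 69.6% ± 1.67 at 16 h. In polysome RNA its share went from 48.0% ± 1.57 to 77.3% ± 0.897, and it was 67.2% ± 1.003 in the inhibitor group. The balance of the pair therefore turned from near even to mostly Sec23b, with ranges of control and 16 h that did not overlap.

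The 4 SEC24 paralogues, which differ in the cargo they bind, all rose in cytosolic RNA at 16 h, by 0.29 for Sec24a, 0.32 for Sec24b, 0.34 for Sec24c and 0.54 for Sec24d (log2). Cytosolic Sec24d was 177, 179, 182 and 183 CPM in control, 248, 249.4, 246 and 241 CPM at 1 h, 271, 253, 261 and 265 CPM at 16 h and 199, 209, 210.0 and 200.1 CPM in the inhibitor group. Every treated library was above every control library. Its polysome level rose far more, from 135, 126.5, 143.3 and 132.8 CPM to 657, 639, 616 and 619 CPM at 16 h, and was 178, 181, 171 and 181 CPM with the inhibitor. The difference between both kinds of RNA was a change in efficiency of 1.65 ± 0.0569 (3.13-fold, adjusted p = 9.78e-14), among the 3 highest of the members. The log2 ratios of Sec24d were 0.01, -0.06, 0.07 and -0.04 in control, 1.63, 1.71, 1.67 and 1.57 at 16 h and 0.25, 0.17, 0.12 and 0.24 in the inhibitor group, and the 16 h libraries stand well above both other groups. Per transcript length, Sec24d held 37.0% ± 0.430 of polysome SEC24 mRNA in control, 45.7% ± 0.519 at 1 h, 61.5% ± 1.10 at 16 h and 40.8% ± 0.516 in the inhibitor group. Sec24c held 46.1% ± 0.486, 37.4% ± 0.546, 25.0% ± 0.952 and 42.1% ± 0.606 in the same order. Sec24c thus led the set in control polysomes and Sec24d led it at both times of thapsigargin.

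Sec24a and Sec24b were the smaller parts of the set. Cytosolic Sec24a was 126.98, 105, 114.7 and 111 CPM in control, 128.2, 139.8, 128.2 and 142.9 CPM at 1 h, 155, 136.8, 129 and 139.3 CPM at 16 h and 94.0, 102, 96.8 and 101.4 CPM in the inhibitor group. With Kdelr1 it was 1 of the 2 members below control in the inhibitor group (-0.22 ± 0.0644, adjusted p = 0.00663), and length-corrected it was not called (-0.0432). Its efficiency, by contrast, was above control there, by 0.70 ± 0.0928, the highest of the members in that comparison. The log2 ratios of polysome to cytosolic Sec24a were -1.38, -1.07, -1.27 and -1.34 in control and -0.54, -0.62, -0.53 and -0.59 in the inhibitor group. Sec24b reached 109.5, 111, 110.5 and 108 CPM at 1 h from 75.8, 73.5, 74.7 and 76.8 CPM in control and then fell by 0.23 (log2) to 95.1, 92.8, 94.6 and 92.99 CPM at 16 h, a fall that turned to 0.0335 length-corrected. Cytosolic Sec24c was 127.2, 117.8, 120.5 and 119.8 CPM in control, 143.2, 151, 150.1 and 140.2 CPM at 1 h, 155, 143.4, 159 and 156 CPM at 16 h and 161, 176, 171 and 158 CPM in the inhibitor group. Its rise from 16 h to the inhibitor group (0.12 ± 0.0473, adjusted p = 0.0363) was -0.02 and not called in a fit on these 2 conditions alone. It was also not called without 16 h replicate 2 (0.08) or inhibitor replicates 2 (0.09) or 3 (0.10).

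The outer cage is built from SEC13 and SEC31, and their mRNAs parted in the polysomes. Cytosolic Sec31a was 193, 211, 213 and 211 CPM in control and 404, 386, 405 and 385 CPM at 1 h, 1.91-fold higher (log2 0.93 ± 0.0408, adjusted p = 1.12e-11). It was 387, 391, 413 and 392 CPM at 16 h and 239, 236, 239 and 233 CPM with the inhibitor. The inhibitor libraries lie between control and 16 h. Cytosolic Sec13 also rose at 1 h, from 194, 233, 235 and 231 CPM to 337, 324, 349 and 308 CPM. In polysome RNA, however, Sec13 fell from 685, 665, 673 and 669 CPM to 305, 289.6, 297 and 305 CPM at 1 h, whereas Sec31a rose from 230.5, 229, 243 and 253 CPM to 570.2, 578, 587 and 583 CPM. On the log2 scale these changes were -1.17 and 1.28, and length-corrected they shrank to -0.56 and 0.36. Sec31a changed in efficiency by 0.28 at 1 h, which turned to -0.36 length-corrected. The efficiency of Sec13 fell by 1.80 ± 0.0709 (log2), the lowest value of the 42 members at 1 h (-1.32 length-corrected). Its log2 ratios were 2.22, 1.95, 1.94 and 1.96 in control, 0.25, 0.17, 0.12 and 0.34 at 1 h, 0.78, 0.70, 0.74 and 0.78 at 16 h and 1.77, 1.64, 1.69 and 1.78 in the inhibitor group. Sec16a, the scaffold of ER exit sites, had among the 3 highest rises in efficiency at 1 h. Its ratios went from -0.31, -0.37, -0.14 and -0.32 in control to 0.89, 0.87, 0.81 and 0.95 at 1 h, but length-corrected the change was -0.11 and not called. Cytosolic Sec16a was 248, 253, 252 and 241 CPM at 1 h and 217, 194, 207 and 211 CPM at 16 h, the lowest of the called changes between those times (-0.26 ± 0.0403). Length-corrected this turned to a rise of 0.18 (adjusted p = 0.00019).

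Both SAR1 GTPases, which start the coat, went the other way. Cytosolic Sar1a was 674, 608, 631 and 651 CPM in control, 319, 339, 342 and 350.4 CPM at 1 h and 429, 383, 392 and 404 CPM at 16 h. Sar1b was 193, 161, 175 and 178 CPM, 80.2, 88.9, 83.4 and 85.7 CPM and 131.1, 117.7, 117.7 and 118.8 CPM in the same order. Every 1 h and 16 h library of either gene was below every control library. In the inhibitor group the libraries overlapped the control range, at 639.6, 699, 658 and 668 CPM for Sar1a and 165, 169.7, 165 and 179 CPM for Sar1b, and neither was called against control. Length-corrected, both were lower than control there (-0.15 and -0.27). Polysome Sar1b fell further, from 292, 309.5, 311 and 274 CPM to 58.5, 51.5, 53.9 and 60.2 CPM at 1 h, 5.30-fold lower. The log2 ratios of Sar1b were 1.003, 1.38, 1.25 and 1.05 in control, -0.06, -0.45, -0.28 and -0.16 at 1 h, -0.41, -0.14, -0.15 and -0.26 at 16 h and 0.92, 0.97, 0.96 and 0.83 in the inhibitor group. Its change in efficiency was -1.41 at 1 h and -1.41 at 16 h against control, and 1.16 in the inhibitor group against 16 h, the highest of the members there. With the length trend removed, these changes were -1.13, -1.04 and 0.72. The polysome share of Sar1b within the pair, per transcript length, was 46.2% ± 1.13 in control, 29.4% ± 1.42 at 1 h, 34.4% ± 0.523 at 16 h and 42.01% ± 0.675 with the inhibitor.

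**Figure D2:**
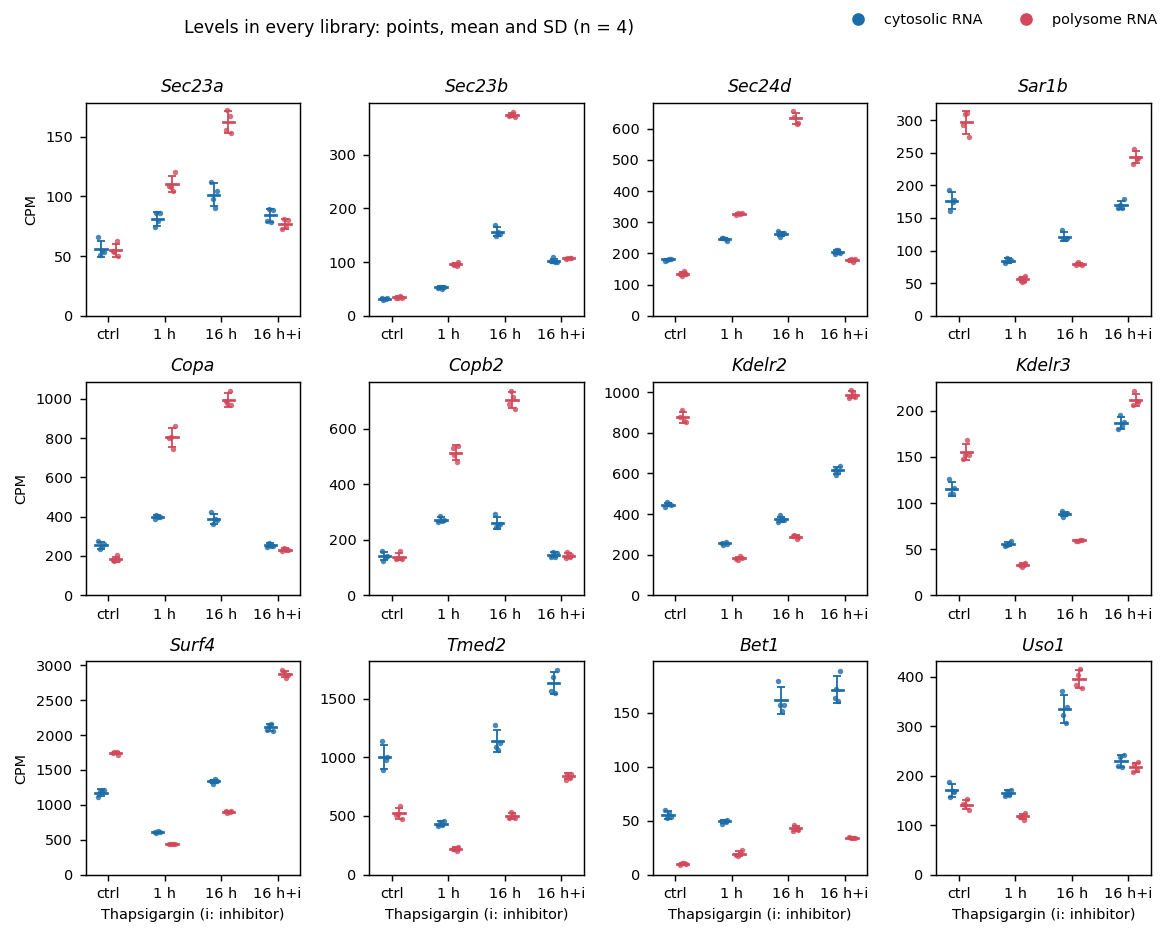
Level in CPM of 12 members in every library (points, 4 per group) with mean and SD, in cytosolic (blue) and polysome (red) RNA, by condition; i marks the inhibitor. Polysome Sec23b, Sec24d, Copa and Copb2 stand highest at 16 h, and polysome Kdelr2, Kdelr3 and Surf4 lie below control at 1 h and 16 h.

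The COPI coat is a complex of 7 subunits that are recruited together, and at 16 h all 7 genes were above control in cytosolic RNA, by 0.22 to 1.26 (log2). At 1 h, 6 rose, of which Copb1 was not called length-corrected (0.13), and Copz1 was lower, a call that was lost without control replicate 1 (-0.09) or 4 (-0.16) and without 1 h replicate 1 (-0.15), 3 (-0.15) or 4 (-0.16), and turned to 0.061 length-corrected. Copb2, the beta-prime subunit that binds retrieval signals, had the highest change of all members at 1 h. The gene lies at chr9:98563721-98588382 (GRCm38, plus strand). Cytosolic Copb2 was 159.8, 124.7, 137.02 and 141 CPM in control and 264, 285, 267 and 272 CPM at 1 h (log2 0.95 ± 0.0722, 1.94-fold, adjusted p = 7.41e-09). At 16 h it was 293, 247, 245 and 256 CPM and in the inhibitor group 137.5, 154, 138 and 151 CPM, within the control range. The fall from 16 h, of 0.84 on the log2 scale, was the lowest change among the members in that comparison. Copa, the alpha subunit, followed the same course, at 277, 234, 245 and 261 CPM in control, 390.0, 409, 397 and 398 CPM at 1 h, 421, 362, 387 and 385 CPM at 16 h and 247, 268, 253 and 248.7 CPM with the inhibitor. Copa overlaps Ncstn on the opposite strand.

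In polysomes the subunits differed. Copa, Copb1, Copb2 and Copg1 were 5.43-, 4.38-, 5.06- and 4.02-fold above control at 16 h, while Cope and Copz1 were 1.30- and 1.33-fold below it. Length-corrected, the falls of Cope (0.12, adjusted p = 0.339) and Copz1 (-0.0154, adjusted p = 0.822) were not called. Polysome Copa went from 180.1, 172, 202 and 178 CPM in control to 803, 807, 745 and 859.9 CPM at 1 h and 989, 979, 1043 and 967 CPM at 16 h, and was 227, 240.0, 229 and 232 CPM in the inhibitor group. Its efficiency rose by 1.42 ± 0.0803 at 1 h and 1.78 ± 0.0805 at 16 h (0.78 and 1.12 length-corrected). The log2 ratios of Copa were -0.21, -0.01, 0.15 and -0.13 in control, 1.43, 1.32, 1.26 and 1.46 at 1 h, 1.58, 1.81, 1.85 and 1.68 at 16 h and 0.29, 0.22, 0.28 and 0.28 in the inhibitor group. The 1 h and 16 h values lie above those of the control and inhibitor groups. Cope, the epsilon subunit, had the lowest change at 16 h, -1.70 ± 0.242, with ratios of 2.83, 1.96, 1.75 and 2.43 in control, 0.39, 0.68, 0.60 and 0.47 at 1 h, 1.13, 0.26, -0.01 and 0.75 at 16 h and 1.56, 1.79, 1.49 and 1.63 in the inhibitor group. Cope was also the most variable member between replicates. Its cytosolic level was 23.2, 45.5, 38.9 and 35.5 CPM in control and 57.5, 42.8, 55.2 and 50.4 CPM at 1 h, ranges that overlap. The rise (0.52, adjusted p = 0.0293) was no longer called without control replicate 1 (0.36) or 4 (0.52), or without 1 h replicate 1 (0.46) or 3 (0.49).

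Arcn1, the delta subunit, fell in efficiency at 1 h and was not called at 16 h. Its ratios were 0.65, 0.98, 1.03 and 0.73 in control, 0.06, -0.11, -0.02 and 0.02 at 1 h and 0.49, 0.89, 0.96 and 0.65 at 16 h. The change between 1 h and 16 h was 0.76 ± 0.0995, and that between 16 h and control was -0.10 (adjusted p = 0.393). Copz1, the zeta subunit, was lower at 16 h than at 1 h, with ratios of 0.25, 0.62, 0.74 and 0.40, 0.22, 0.05, 0.13 and 0.18 and -0.32, -0.14, -0.06 and -0.23 in the same order. Its change between these times was -0.33, among the 3 lowest of the members, and was not called length-corrected (-0.21). Per transcript length, control cytosolic levels of the 7 subunits ran from 27.5 ± 7.23 CPM per kb for Cope to 92.0 ± 8.55 CPM per kb for Arcn1 (SD, n = 4). Copz1 at 87.2 ± 8.75 CPM per kb did not differ from Arcn1 beyond this spread.

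Among the ARF genes, the GTPases and their exchange factor moved apart. Gbf1 (chr19:46152509-46286510, GRCm38, plus strand), the exchange factor that loads ARF1 with GTP at the early Golgi, had the highest rise in efficiency of all members at 1 h and at 16 h (1.80 ± 0.0625 and 1.87 ± 0.0624). Length-corrected, these rises were 0.75 and 0.89. They then stood below those of Bet1 (0.86), Copa (0.78) and Arfgap1 (0.76) at 1 h. At 16 h they stood below Copa (1.12), Sec24d (1.11), Copg1 (1.08), Copb2 (0.97) and Copb1 (0.92). Its log2 ratios were -0.29, -0.51, -0.32 and -0.33 in control, 1.40, 1.44, 1.40 and 1.5004 at 1 h, 1.57, 1.52, 1.45 and 1.49 at 16 h and -0.11, -0.17, -0.19 and -0.08 in the inhibitor group. In CPM, polysome Gbf1 went from 34.8, 31.7, 36.2 and 36.0 to 197, 206, 197 and 195 at 1 h, 5.73-fold higher (log2 2.52, and 1.14 length-corrected). Cytosolic Gbf1 rose 1.58-fold at the same time, with no overlap between the groups.

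Cytosolic Arf1 was 589.9, 659, 636 and 655 CPM in control and 412, 397, 408 and 406 CPM at 1 h, and Arf4 was 688, 571, 601 and 626 CPM and 369, 381, 343 and 390.1 CPM. Both fell at 1 h, 1.56-fold and 1.68-fold. At 16 h Arf1 was 654, 684, 708 and 693 CPM and Arf4 707, 663, 637 and 646 CPM. With the inhibitor, levels were 1019, 999, 1032 and 1002 CPM for Arf1 and 935, 956, 918 and 1019 CPM for Arf4. The inhibitor libraries of both genes exceed every other library. Their efficiencies were below control at 1 h (-1.02 and -0.92) and at 16 h (-0.96 and -0.65). The length-corrected values were -0.82 and -0.72 at 1 h and -0.63 and -0.33 at 16 h. Cytosolic shares of the pair, per transcript length, ran from 48.2 to 55.6% for Arf1 in control, and from 50.1 to 54.7% at 16 h, ranges that overlap. Arf4 overlaps Pde12 on the opposite strand, and because the strand setting of the counting is not given, reads from the overlap cannot be assigned.

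The ARF GTPase activators, which release the coat, rose in cytosolic RNA. Arfgap3 went from 23.8, 28.6, 28.3 and 29.1 CPM in control to 47.4, 46.0, 47.5 and 47.1 CPM at 1 h and 84.9, 84.6, 88.7 and 89.8 CPM at 16 h (3.17-fold, adjusted p = 3.47e-14). It was 70.9, 75.0, 71.2 and 70.4 CPM in the inhibitor group, 2.62-fold above control. Its efficiency fell, with ratios of 1.81, 1.499, 1.496 and 1.52 in control and 0.35, 0.40, 0.37 and 0.45 at 1 h. The inhibitor group, at 0.85, 0.72, 0.88 and 0.83, was -0.76 against control, the lowest change of the members there. Arfgap1 and Arfgap2 rose by 0.44 and 0.38 at 1 h. Arfgap2 was not called in efficiency at 1 h or 16 h (-0.05 and -0.08), but was lower than control in the inhibitor group (-0.42 ± 0.0581), where its ratios were 0.73, 0.65, 0.65 and 0.77 against 1.08, 1.09, 1.16 and 1.14. It shares bases with 1110051M20Rik on the opposite strand.

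The p24 genes encode small membrane proteins that cycle between ER and Golgi and select cargo for both coats. All 5 fell in cytosolic RNA at 1 h and all 5 rose from 1 h to 16 h. Tmed2 (chr5:124540695-124550506, GRCm38, plus strand) had the lowest change of all members at 1 h. It was 1137, 894, 976 and 1006 CPM in control and 413, 449.7, 420.3 and 457 CPM at 1 h (log2 -1.21 ± 0.0726, 2.31-fold lower, adjusted p = 4.7e-10). It was 1274, 1087, 1061 and 1125 CPM at 16 h and 1563, 1689, 1550.0 and 1741 CPM in the inhibitor group. Tmed7 was 530.2, 422, 459 and 454 CPM in control, 205, 216, 197 and 217 CPM at 1 h, 429, 360.5, 335 and 373 CPM at 16 h and 482, 546, 488 and 553 CPM with the inhibitor. The 1 h libraries of both genes thus lay below every library of the other conditions.

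Tmed3, Tmed9 and Tmed10 fell by 1.02, 0.70 and 0.99 at 1 h (log2). At 16 h, Tmed2, Tmed3 and Tmed9 were slightly above control, by 0.18 to 0.38, and Tmed7 and Tmed10 below it. The Tmed2 and Tmed9 values at 16 h (0.18 and 0.23) were not called in a fit on these 2 conditions alone. That of Tmed2 was also lost without control replicate 2 (0.13), 3 (0.17) or 4 (0.18) or 16 h replicate 1 (0.12). With the inhibitor, all 5 were above the 16 h group, by 0.28 to 0.53, and length-corrected Tmed3 was not called (0.0894). In efficiency the family was not uniform. Tmed3, Tmed9 and Tmed10 fell at 1 h, by 1.32, 0.90 and 1.14, whereas Tmed2 (-0.11) and Tmed7 (0.22) were not called. Tmed7 was above control in the inhibitor group, with ratios of 0.31, 0.23, 0.38 and 0.26 against -0.49, -0.22, -0.12 and -0.47 in control (0.62 ± 0.108). Per transcript length Tmed2 had the highest control level of the 42 members, 484 ± 48.6 CPM per kb in cytosolic RNA, and Surf4 at 358 ± 14.1 and Tmed7 at 346 ± 33.9 came next and did not differ from each other beyond their spread. Tmed7 shares 838 bases with Ticam2 on the same strand, and Surf4 144 bases with Surf2 on the opposite strand. How reads from such overlaps were counted is not given, so these 2 levels may be off.

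All 7 cargo and retrieval receptors fell in both kinds of RNA at 1 h. The KDEL receptors, which return ER chaperones such as BiP from the Golgi, differed in how far they recovered. Cytosolic Kdelr1 (chr7:45872772-45883732, GRCm38, plus strand) was 207, 205, 208 and 205 CPM in control, 100.7, 99.1, 107.1 and 102 CPM at 1 h and 100.8, 107.3, 106.5 and 99.5 CPM at 16 h (log2 -0.995 ± 0.0390, adjusted p = 3.01e-13), the lowest of the 42 at 16 h. The inhibitor group, at 167, 176, 173 and 171 CPM, lay between, and was still below control (-0.27 ± 0.0385). Kdelr2 was 436, 457, 447 and 446 CPM in control, 256, 249.1, 260.0 and 254 CPM at 1 h, 362, 393, 369.7 and 371 CPM at 16 h and 616, 594, 612 and 637 CPM with the inhibitor. Kdelr3 was 126, 109.9, 110.1 and 116.1 CPM, 53.7, 54.6, 55.2 and 58.8 CPM, 90.9, 84.7, 87.8 and 88.8 CPM and 179.9, 195, 183 and 188 CPM in the same order. Kdelr2 and Kdelr3 were thus higher in every inhibitor library than in any control library, and Kdelr3 had the highest change of the members against 16 h (1.08 ± 0.0492, 2.12-fold).

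In polysomes the 3 KDEL receptors fell at 1 h by similar factors, 4.77-, 4.79- and 4.71-fold. Polysome Kdelr2 went from 878, 914, 857 and 856 CPM in control to 181, 176, 191 and 185 CPM at 1 h and 292, 297, 277 and 289 CPM at 16 h, and was 971, 1009, 997 and 979.7 CPM in the inhibitor group. The log2 ratios of Kdelr2 were 1.42, 1.44, 1.36 and 1.37 in control, -0.11, -0.17, -0.10 and -0.10 at 1 h, 0.04, -0.03, 0.01 and -0.01 at 16 h and 1.07, 1.14, 1.12 and 1.01 with the inhibitor. Kdelr1 in the inhibitor group had ratios of 0.91, 0.81, 0.86 and 0.85 against 1.30, 1.41, 1.36 and 1.38 in control, a change of -0.51 ± 0.0544, among the 3 lowest called values. Within the set, per transcript length, the cytosolic share of Kdelr1 was 28.4% ± 0.276 in control, 19.5% ± 0.488 at 16 h and 18.7% ± 0.464 in the inhibitor group. Kdelr3 held 17.98% ± 1.12, 18.8% ± 0.951 and 22.97% ± 0.793. Kdelr2 was the main form in every condition, at 53.7% ± 1.12 in control.

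The other receptors carry cargo out of the ER. Mcfd2, the cofactor of the lectin LMAN1 in the export of clotting factors, fell 2.02-fold at 1 h and then rose. It was 217, 197, 199.8 and 207 CPM in control, 98.8, 102.95, 103.7 and 101.05 CPM at 1 h, 312, 282, 300.02 and 315 CPM at 16 h and 321, 341, 323 and 334 CPM in the inhibitor group. The rise from 1 h to 16 h, 1.57 ± 0.0461, was among the 3 highest, while its efficiency fell between these times (-0.42 ± 0.0775), from 0.16, 0.06, 0.08 and 0.14 to -0.44, -0.19, -0.20 and -0.39. That fall was not called length-corrected (-0.25). Its partner Lman1 changed by -0.17 at 1 h and 0.69 at 16 h. Surf4, a receptor for soluble cargo, changed by -0.95 and 0.19, and Lman2 by -0.48 and 0.27. In polysomes Surf4 was still 1.95-fold below control at 16 h and 1.65-fold above it in the inhibitor group, where its 4 libraries were 2929, 2897, 2824 and 2866 CPM against 1747, 1752, 1760.0 and 1716 CPM. On the log2 scale its 16 h change was -0.96, and -0.45 length-corrected. Efficiency at 16 h was below control for all 7 receptors, by 0.29 to 1.39, and above the 16 h value in the inhibitor group for all 7, by 0.19 to 1.08. The Mcfd2 value there was lost in 5 of the 8 fits that left out 1 sample, those without 16 h replicates 1 (0.15) or 4 (0.17) or inhibitor replicates 1 (0.19), 3 (0.18) or 4 (0.20). Length-corrected, Mcfd2 was not called at 16 h (-0.11) or in the inhibitor group (-0.00859). Kdelr2, with the largest of these inhibitor values, moved from 1.08 to 0.62 with that correction.

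The 4 SNAREs changed by at most 0.17 (log2) in cytosolic RNA at 1 h, and 3 of them were above control at 16 h. Bet1 (chr6:4076899-4086972, GRCm38, minus strand), a SNARE of the vesicle side, was 59.7, 52.1, 56.9 and 53.1 CPM in control, 47.2, 49.8, 48.9 and 51.0 CPM at 1 h and 179.9, 158, 152 and 157 CPM at 16 h (1.54 ± 0.0647, 2.91-fold, adjusted p = 7.63e-13). It was 164, 172, 161 and 189 CPM in the inhibitor group and was not called against 16 h (0.09, adjusted p = 0.227), but length-corrected it was lower there (-0.37, adjusted p = 0.000147). Bet1 had the lowest log2 ratios of all members, -2.30, -1.81, -1.97 and -2.05 in control, -1.01, -1.21, -0.94 and -0.83 at 1 h and -1.81, -1.42, -1.38 and -1.57 at 16 h. The fall between 1 h and 16 h, -0.55 ± 0.114, was the lowest of the members. Gosr2, its Golgi partner, rose by 0.99 at 16 h in cytosolic RNA and was 0.98 above control in the inhibitor group. Sec22b rose by 0.77 at 16 h, but its polysome level was not called against control (-0.04, adjusted p = 0.411; 0.42 and called higher length-corrected), and was higher in the inhibitor group (1.01). Ykt6 was not called at 16 h (0.04) and was 0.64 higher in the inhibitor group. The small 1 h changes of Bet1, Ykt6 and Sec22b (-0.17, -0.12 and 0.17) were not called in several fits that left out 1 library. For Bet1 these were the fits without control replicate 1 (-0.14) or 3 (-0.16) or 1 h replicate 1 (-0.15), 2 (-0.18) or 3 (-0.17). For Sec22b they were those without control replicate 2 (0.13), 3 (0.15) or 4 (0.15) or 1 h replicate 4 (0.16). For Ykt6, 6 of 8 such fits lost the call, with values of -0.13 to -0.07, all but those without control replicates 2 or 4.

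Of the tethers, Uso1 (p115), which captures ER vesicles at the Golgi, was 187, 157, 169.7 and 168 CPM in control, 159, 169, 160.2 and 171 CPM at 1 h, 373, 322, 306 and 339 CPM at 16 h and 220.2, 237, 218 and 243 CPM in the inhibitor group. It rose 1.97-fold at 16 h (adjusted p = 3.65e-10). Its log2 ratios went from -0.05, -0.20, -0.18 and -0.10 at 1 h to 0.40, 0.70, 0.87 and 0.50 at 16 h, a rise of 0.75 ± 0.0899. Golga2 (GM130), the Golgi partner of Uso1, was 46.1, 59.1, 54.8 and 53.3 CPM in control, 66.3, 63.5, 62.4 and 61.6 CPM at 1 h and 51.2, 53.8, 54.7 and 53.7 CPM at 16 h. Its change between 1 h and 16 h was -0.25 (-0.0437 and not called length-corrected), and it was not called between 16 h and control. Golga2 overlaps Swi5 on the opposite strand.

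**Figure D3:**
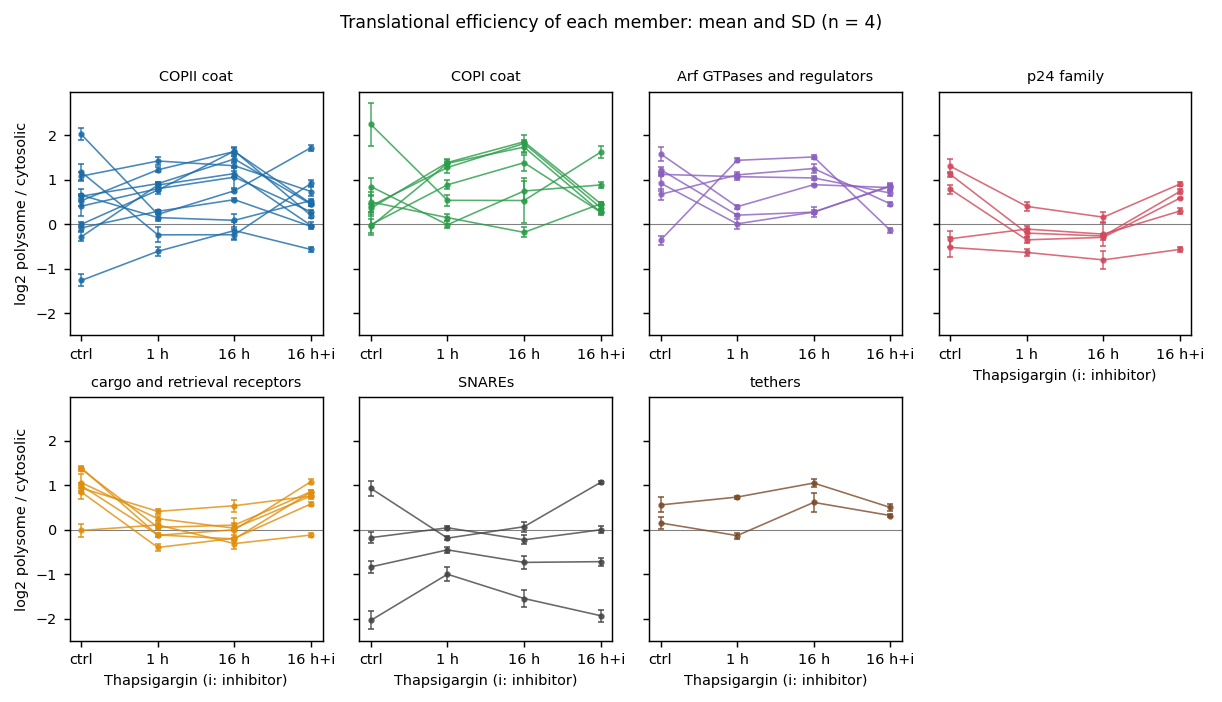
Translational efficiency of each member as the log2 ratio of polysome to cytosolic RNA (mean and SD, n = 4) by condition, 1 panel per role; lines join the 4 conditions of a gene and i marks the inhibitor. COPI genes separate at 1 h and 16 h, where 4 lines rise and that of Cope, the highest in control, falls, and all 7 receptor lines are below control at 16 h and higher in the inhibitor group.

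The changes in efficiency also ran along the length of the coding sequence (GENCODE M21). The 22 members under 1200 nt (354 to 1074 nt) include both SAR1 GTPases, Sec13, Cope, Copz1, the ARF GTPases, the p24 family, most receptors and the SNAREs. The 20 longer ones (1242 to 7071 nt) include SEC23, SEC24, Sec31a, Sec16a and the large COPI subunits. At 1 h, 3 of the shorter members rose in efficiency and 16 fell (median -0.97), and 14 of the longer rose and 4 fell (median 0.42). At 16 h the counts were 1 and 18 for the shorter and 16 and 2 for the longer. In the inhibitor group against 16 h, 19 shorter members were higher and 1 lower, and 1 longer member was higher and 17 lower. The shorter members that rose at 1 h were the SNAREs Bet1, Gosr2 and Ykt6, of which Ykt6 was not called without control replicate 1 (0.16). The longer ones that fell were Arcn1, Arfgap3, Uso1 and Lman1.

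**Figure D4:**
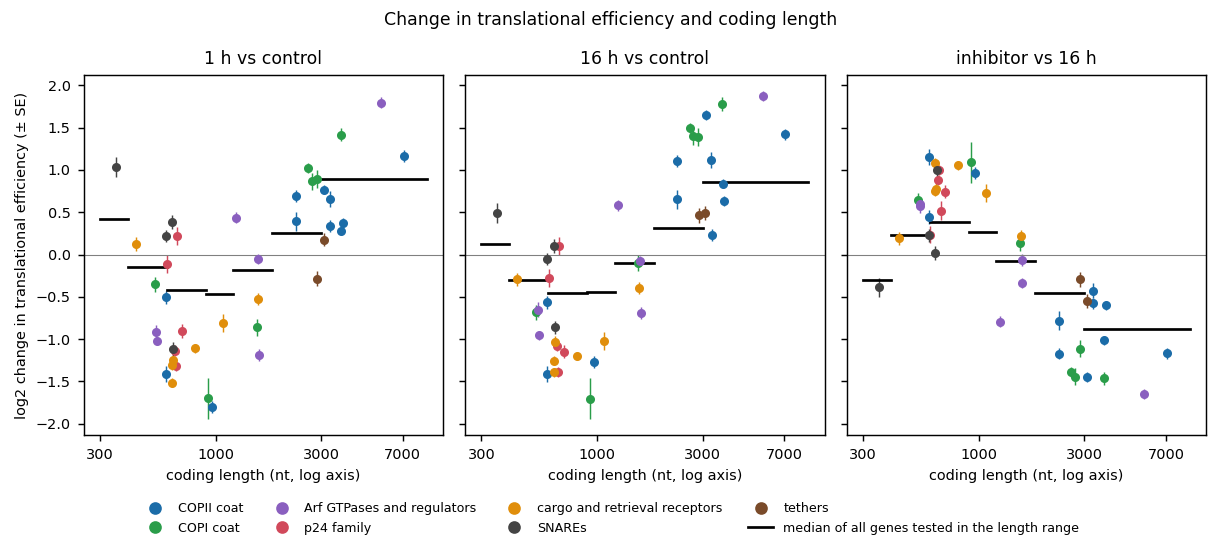
Log2 change in translational efficiency (± SE) of the 42 members against coding length in nt (log axis), colored by role, in 3 comparisons; black lines are the medians of all tested genes in 7 length ranges. Members over 3000 nt lie above 0 at 1 h and 16 h and below 0 for the inhibitor group against 16 h.

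A similar course was seen over all tested genes, except the shortest. Among 1675 tested genes of 3000 nt or more, the median change in efficiency was 0.89 at 1 h and 0.85 at 16 h, and -0.88 in the inhibitor group against 16 h. Among 1671 genes of 600 to 900 nt it was -0.42, -0.46 and 0.39. Among 554 genes under 400 nt it was 0.42, 0.12 and -0.31, with the signs of the longest genes. Bet1, at 354 nt, is in that range. Across the 42 members, Spearman's rho between coding length and change in efficiency was 0.53 at 1 h, 0.66 at 16 h and -0.69 in the inhibitor group against 16 h, and across 12130 genes it was 0.31, 0.39 and -0.44. All points share the same libraries and are not independent. Length-corrected, 8 of the longer members rose and 8 fell at 1 h (median 0.10), and 4 shorter ones rose and 15 fell (median -0.69). At 16 h, 12 longer members rose and 3 fell, and 4 shorter ones rose and 15 fell. Shares of all genes called in the length-corrected fit are not given beside these counts. With that correction Sec16a (-0.11), Sec24b (-0.29), Sec24c (-0.20) and Sec31a (-0.36) were below 0 at 1 h, and so was Golga2 (-0.30, adjusted p = 0.00175), which had not been called as reported. What sets the relation with length was not tested. The polysome fractions begin above 4 ribosomes, so a shift of an mRNA across that limit and a change among heavier polysomes cannot be told apart.

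The 7 members with the unfolded protein response core in their promoters were not alike in their cytosolic changes. At 16 h against control they were 0.89 for Copb2, 0.86 for Sec23a, 0.69 for Copb1, 0.54 for Sec24d, 0.53 for Gbf1, 0.11 for Arf1 and -0.39 for Kdelr3. The members with the 3 highest rises, Sec23b, Arfgap3 and Bet1, had no such core in the window. Of the factors themselves, cytosolic Atf6 was 126 ± 8.33 CPM in control, 108 ± 3.28 at 1 h, 395 ± 28.6 at 16 h and 124.5 ± 7.04 in the inhibitor group (SD, n = 4). Xbp1 was 163 ± 11.5, 171 ± 7.33, 344 ± 14.5 and 180.0 ± 3.74 CPM in the same order. Creb3l1, a related factor that raises COPII genes in secretory cells, was 229 ± 47.9, 147 ± 13.7, 46.5 ± 7.81 and 132 ± 11.8 CPM. Cytosolic Creb3l2 differed by at most 0.30 (log2) between any of the conditions compared. Its polysome level changed by 0.48 at 16 h against control and by -0.71 in the inhibitor group against 16 h. These are mRNA levels, and splicing of Xbp1 or cleavage of ATF6 was not measured.

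A wider list of 76 further genes of the pathway was drawn from known roles, of which 72 could be tested. In cytosolic RNA 22 rose and 28 fell at 1 h, where 28.1% higher and 28.1% lower was the share of all genes. At 16 h, 39 were above and 19 below control, against 37.9% higher and 39.4% lower of all genes. Their medians were -0.02 and 0.27 on the log2 scale. Further cargo receptors and proteins of the intermediate compartment were mostly lower at 1 h, with 0 of 11 called higher and 10 lower. Of 9 further SNARE and fusion genes, 6 rose and 0 fell at 1 h, and all 9 were above control at 16 h. At 1 h the highest values were Trappc9 (1.57), a subunit of a tethering complex, and Nsf (0.71), the ATPase that recycles SNAREs. The lowest were Cnih4 (-1.14), a cargo receptor, and Ergic2 (-1.10). At 16 h they were Scfd1 (1.36), a regulator of the ER to Golgi SNAREs, and Trappc6a (1.23, with groups that overlap), and at the low end Trappc1 (-1.52) and Tmed1 (-1.45), a further p24 gene. From 1 h to 16 h the extremes were Bcap29 (1.14) and Cnih4 (1.07), and Trappc9 (-0.86) and Trappc1 (-0.77).

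In the inhibitor group against 16 h, 30 of the 72 were higher and 31 lower, against 42.2% higher and 32.5% lower of all genes. Trappc1 (1.39) and Arf5 (1.24) were highest, and Scfd1 (-0.86) and Trappc8 (-0.76) lowest. Against control, 42 were higher and 13 lower (all genes: 38.1% higher and 35.2% lower), with Trappc6a (1.64) and Use1 (0.96) at the top and Sec16b (-0.94) and Ergic3 (-0.77) at the bottom. In efficiency, 17 of the 72 rose and 35 fell at 1 h, against 33.4% higher and 34.4% lower of all genes, and 18 and 36 did so at 16 h, against 31.1% higher and 33% lower. With the inhibitor, 33 were above and 20 below the 16 h efficiency, against 26.4% higher and 33.7% lower of all genes.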

How the data were processed

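RNA was sequenced from cytosolic lysate and from polysome fractions of the same 16 samples, 4 per condition. The deposited values are raw counts per gene symbol in 32 libraries. Per the submitters' processing notes, the authors used HISAT, mm10 and DESeq2 1.9.23. Not given in the sources used here are how reads were counted, on which strand, and against which annotation. 3234 of 20234 genes had 0 counts in every library, and 0 per-sample columns were left unused.

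Counts were tested with the quasi-likelihood test of edgeR 4.0.16 (limma 3.58.1, R 4.3.3), robust, with TMM scaling and filterByExpr (minimum count 10, minimum total 15), which left 12366 genes in cytosolic and 12065 in polysome RNA. P-values were adjusted by Benjamini-Hochberg over all tested genes and called under 0.05. Translational efficiency was the interaction of RNA kind and condition over 32 libraries and 12561 genes, with each sample as a block, since both libraries of a sample share a label. The script was checked on simulated counts. Levels are CPM with TMM factors.

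The members, the wider gene list and the motifs were chosen with earlier results of these data known. Library values are given for the 3 highest and the 3 lowest called members in cytosolic RNA and in efficiency of each comparison, and for paralogue sets. Of the wider list, the 2 highest and 2 lowest are named. No pair of libraries of a group agreed within sampling noise (lowest chi-square per degree of freedom 2.29). Alternatives were DESeq2 1.42.0, its size factors in edgeR, no filter, the replicate number as a block, fits on 2 conditions, leaving out each sample, and a coding-length correction chosen after seeing the data. Coding lengths (GENCODE M21) covered 96.6% of tested genes. Protein identity within families was not analysed here.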

Additional observations from a re-analysis of the deposited data

Results flagged for a closer look

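In 21 of 336 groups of 4 libraries looked at (42 members, 2 kinds of RNA, 4 conditions), 1 library lay far from the other 3, by Dixon's 95% criterion for 4 values (the gap to the nearest library over the range of the group). Chance flags about 1 in 20 groups. The values are CPM of that library against the range of the other 3. Cytosolic control replicate 1 held 7 of the 21. It was below its partners for Sec13 (194 against 231 to 235), Sec31a (193 against 211 to 213), Gbf1 (56.4 against 60.7 to 60.9), Arfgap1 (62.5 against 72.7 to 74.6), Arfgap3 (23.8 against 28.3 to 29.1) and Tmed9 (285 against 361 to 372), and above them for Ykt6 (188 against 164 to 167). The other cytosolic values were high for Sec23b (108 against 100.1 to 101.4) and Arfgap3 (75.0 against 70.4 to 71.2) in inhibitor replicate 2, and for Sar1b (131.1 against 117.7 to 118.8) and Copb1 (268 against 230.5 to 234) in 16 h replicate 1. They were low at 1 h for Copg1 (362 against 384 to 387) in replicate 4 and Gosr2 (171 against 178 to 179.6) in replicate 1.

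In polysome RNA, control replicate 3 was high for Copb1 (128.1 against 103.5 to 105) and Copb2 (159.6 against 130.9 to 134.4), and 1 h replicate 2 was high for Gbf1 (206 against 195 to 197) and Arfgap2 (145.9 against 138 to 138.7). At 16 h, replicate 1 was low for Sec22b (95.2 against 99.6 to 100.5) and replicate 3 high for Ykt6 (120.5 against 114 to 115.1). In the inhibitor group, replicate 3 was low for Tmed3 (412 against 422 to 424) and replicate 1 high for Lman2 (819 against 772 to 774).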

How the results depend on the processing

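Of the 30 counts of members called higher or lower, none moved by more than 1.5 times when any sample was left out, or with the replicate number as a block (with the replicate block 21 members were higher and 18 lower at 1 h in cytosolic RNA, and without a block on samples 18 and 20 in efficiency). Same-numbered samples deviated with a median correlation of 0.01 in cytosolic RNA (-0.71 to 0.86), so the numbers were not taken to pair them. For the cytosolic and polysome library of 1 sample, the block in the efficiency test, the median was 0.13 (-0.63 to 0.42, 16 samples). Counts that moved by more than 1.5 times were these. Members lower at 16 h than at 1 h numbered 5 in cytosolic RNA and 3 corrected for coding length. In polysome RNA that count was 1, and 0 with DESeq2, with its size factors or with no filter, and 2 corrected for length. In efficiency it was 6, and 1 corrected for length. Members more efficient than control in the inhibitor group were 7, and 11 with DESeq2 or its size factors and 4 corrected for length. Less efficient were 16, and 10 with DESeq2 and 9 with its size factors. The cause was not tested.

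Corrected for coding length, 61 of 630 member values changed sign, 32 of them called as reported. Of the other 29, 14 were called once corrected. The 32 are given as the corrected log2 change. In cytosolic RNA these were Copz1 0.0612, Bet1 0.0819 and Ykt6 0.0923 (1 h against control), Sec16a 0.18, Sec24b 0.0335, Copg1 0.00676, Gbf1 0.25 and Ykt6 -0.0141 (16 h against 1 h), Sec16a 0.0605 and Mcfd2 -0.25 (inhibitor against 16 h). In polysome RNA these were Sec24c -0.12 and Golga2 -0.22 (1 h against control), Cope 0.12 and Tmed7 0.31 (16 h against control), Sec24c 0.26, Mcfd2 -0.24 and Golga2 0.0931 (inhibitor against 16 h), Tmed10 -0.0488 (inhibitor against control). In translational efficiency these were Sec16a -0.11, Sec24b -0.29, Sec24c -0.20 and Sec31a -0.36 (1 h against control), Sec24b -0.0439, Sec24c -0.35, Tmed2 0.0994, Uso1 -0.0190 and Golga2 -0.0403 (16 h against control), Sec24a 0.0987, Mcfd2 -0.00859, Ykt6 -0.21 and Uso1 0.16 (inhibitor against 16 h), Sec16a -0.00404 (inhibitor against control). Fitted on 2 conditions alone, Sec24c -0.0180 and Mcfd2 -0.00753 changed sign for the inhibitor group against 16 h in cytosolic RNA. Leaving out a sample kept the call of 4915 of 5040 member values and reversed 0. At this depth all 42 members could be tested.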
